A study of Mus musculus with 81 samples.

Results

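The 10 genes described here are Ezh2, Suz12, Eed, Bmi1, Dnmt1, Dnmt3a, Dnmt3b, Uhrf1, Tet1 and Tet2, chosen by symbol as the core genes of Polycomb repression and of DNA methylation and its removal. Earlier results of these data were known when they were chosen. All 10 were found once each among the 51826 genes of the deposited table. The study sequenced RNA from frozen thymic tissue of 40 mice of strain C57BL/6 x 129S4Sv/Jae in 81 libraries, to examine how aneuploidy affects tumour development. Every animal, controls included, carried Plk4(Col1a1), rtTA(Rosa) and centrin-GFP(Rosa), a doxycycline-inducible transgene for the kinase that starts centriole duplication, its transactivator and a centrosome reporter. Normal thymus from 8 p53+/+ animals without treatment served as control. The lymphomas formed 3 groups, which are given in this order throughout. The first was p53-/- without treatment (10 mice, 23 libraries), the next was p53-/- with treatment (9 mice, 18 libraries) and the last was p53+/- with treatment (12 mice, 31 libraries). Treatment meant doxycycline for 2 weeks from day 30 of age, the inducer of the transgene. The ages at which tissue was taken are not given in the sources used here. A further normal thymus, from mouse 819, was p53+/- and entered no main test. Untreated p53+/- lymphomas were not analysed here, so the effect of treatment can be read only within p53-/- animals and that of genotype only within treated animals. The groups also differ in labelled sex, with 9 of 10, 4 of 9 and 3 of 12 lymphoma mice and 4 of 8 normal mice labelled male. Sex is therefore uneven across both contrasts, and labelled sex enters the tests as a covariate. In 13 lymphomas (4, 3 and 6 of the 3 groups in that order) 4 or 5 regions were biopsied, 54 libraries in all.

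Polycomb repressive complex 2 places methyl groups on lysine 27 of histone H3 and so keeps developmental genes silent. Ezh2 is its catalytic subunit, while Suz12 and Eed are the core subunits without which the enzyme is inactive. Bmi1 belongs to Polycomb repressive complex 1, which ubiquitinates histone H2A. Dnmt1 copies DNA methylation onto newly made DNA and is brought to replicating DNA by Uhrf1, whereas Dnmt3a and Dnmt3b methylate DNA de novo. Tet1 and Tet2 oxidise methylcytosine, the first step in its removal. In the T-cell lineage Ezh2, Suz12, Eed, Dnmt3a and Tet2 are known as recurrently mutated genes of leukaemia and lymphoma, and Ezh2, Dnmt1 and Uhrf1 are known to be expressed most highly in dividing cells.

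The promoters of 3 genes are printed because Suz12, Bmi1 and Dnmt3b were the members called higher in all 3 lymphoma groups both with and without a proliferation term in the model, as described below. Each run is the 250 bases 5′ of the RefSeq transcript start (GRCm38.p6), read 5′ to 3′ on the plus strand, which is the strand of all 3 genes. Suz12 lies on chr11:79992856-79993105, Bmi1 on chr2:18676768-18677017 and Dnmt3b on chr2:153649199-153649448. Capitals mark every match, on either strand, to the E2F motifs TTTCCCGC and TTTGGCGC, the E-box CACGTG, the CCAAT box, the cell-cycle homology motif TTTGAA and the GC box GGGCGG, and adjoining GC boxes may overlap.
Suz12: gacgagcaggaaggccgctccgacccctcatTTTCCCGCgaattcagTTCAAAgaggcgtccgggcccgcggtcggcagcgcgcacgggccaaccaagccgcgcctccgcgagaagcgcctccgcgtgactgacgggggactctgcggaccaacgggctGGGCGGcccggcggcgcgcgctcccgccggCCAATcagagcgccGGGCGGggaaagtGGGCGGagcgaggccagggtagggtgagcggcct
Bmi1: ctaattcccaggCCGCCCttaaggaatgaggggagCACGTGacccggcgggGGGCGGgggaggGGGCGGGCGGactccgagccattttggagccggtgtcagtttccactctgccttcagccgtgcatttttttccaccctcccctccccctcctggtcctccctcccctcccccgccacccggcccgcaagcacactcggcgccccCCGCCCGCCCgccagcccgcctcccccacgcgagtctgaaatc
Dnmt3b: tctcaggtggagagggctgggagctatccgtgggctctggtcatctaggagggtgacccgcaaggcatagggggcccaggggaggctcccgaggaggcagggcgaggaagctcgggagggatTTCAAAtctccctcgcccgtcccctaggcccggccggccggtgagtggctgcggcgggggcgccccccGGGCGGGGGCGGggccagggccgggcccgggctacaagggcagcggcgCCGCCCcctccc
The Suz12 run holds an E2F match from base -219 to -212 before the start, a motif of 0.895% of 32851 RefSeq promoter windows of the same length. No other window of the 10 members held either E2F motif, against 1.3% of all windows with at least 1 of them. Bmi1 holds an E-box from -215 to -210 (6.02% of windows), and a window of Dnmt3a holds another. The Dnmt3b run has GC boxes (32.7% of windows) and a TTTGAA match (16% of windows) and neither a CCAAT box (33.8% of windows) nor an E-box. The Suz12 window has a GC content of 73.6%, that of Bmi1 70.4% and that of Dnmt3b 75.2%, with 37, 21 and 21 CpG sites, against medians of 52.4% and 6 sites over all windows. These matches describe letters only, and no binding or methylation was measured in these libraries.

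Library totals ranged from 1030400 to 26871729 counts. Levels are CPM, counts scaled to a common library size, with TMM scaling factors, after the biopsies of a mouse had been summed, and the mouse is the replicate. A gene was called where edgeR's quasi-likelihood test gave a Benjamini-Hochberg adjusted p under 0.05 over all genes tested. The labelled sex and the sex-linked genes disagreed in 3 mice, all in treated groups (869 and 870, p53-/-, and 328, p53+/-). Tissue labels were set against marker genes, given as summed CPM. The 10 T-lineage markers had medians of 9770 in normal thymus and of 5080, 6870 and 6200 in the lymphoma groups. Lymphoma mouse 881 (untreated p53-/-) stood apart, with T-lineage markers at 211 and the 5 B-lineage markers at 2900, so its markers went against a T-cell tumour. Normal mouse 387 also stood apart, with T-lineage markers at 1650, B-lineage markers at 1200 and fat markers at 9100. Lymphoma mouse 266 (treated p53+/-) had the 5 fibroblast markers at 2500 and the 5 myeloid markers at 1620, against group medians of 352 and 642. Its T-lineage markers, at 3290, were the lowest of its group. The 7 thymic epithelium markers summed to 128 to 2290 in normal thymus and to 8.06 to 344 in lymphomas, and the 5 fat markers to 688 to 9100 and to 37.1 to 185. The part of these cell types in the results was not tested. No gene of these lists was at 0 in every mouse of a group. In such bulk samples fewer cells of a type and less RNA per cell cannot be told apart.

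The first question was whether the genes differed between lymphoma and normal thymus. Suz12, Eed, Bmi1, Dnmt1, Dnmt3a, Dnmt3b and Uhrf1 were called higher in all 3 lymphoma groups, Ezh2 in the 2 treated groups, and the Tet genes in none by edgeR. In untreated p53-/- lymphomas 7 of the 10 members were called higher, where 23.2% of all 17843 genes tested were called higher. In treated p53-/- lymphomas 8 were called higher (background 25.4%), as were 8 in treated p53+/- lymphomas (background 25.6%). No member was called lower, against 17.5%, 26.7% and 25.3% of all genes. The members' median log2 fold changes were 1.01, 1.08 and 0.95, beside medians of 0.08, -0.04 and 0.00 over all genes tested. The 3 contrasts share the same 8 normal mice, and the members were chosen with earlier results of these data known. All mice of the group lay above every normal mouse for 4 members in untreated p53-/- lymphomas (background 5.58%), for 6 in treated p53-/- lymphomas (background 9.3%) and for 3 in treated p53+/- lymphomas (background 8.11%).

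**Figure D1:**
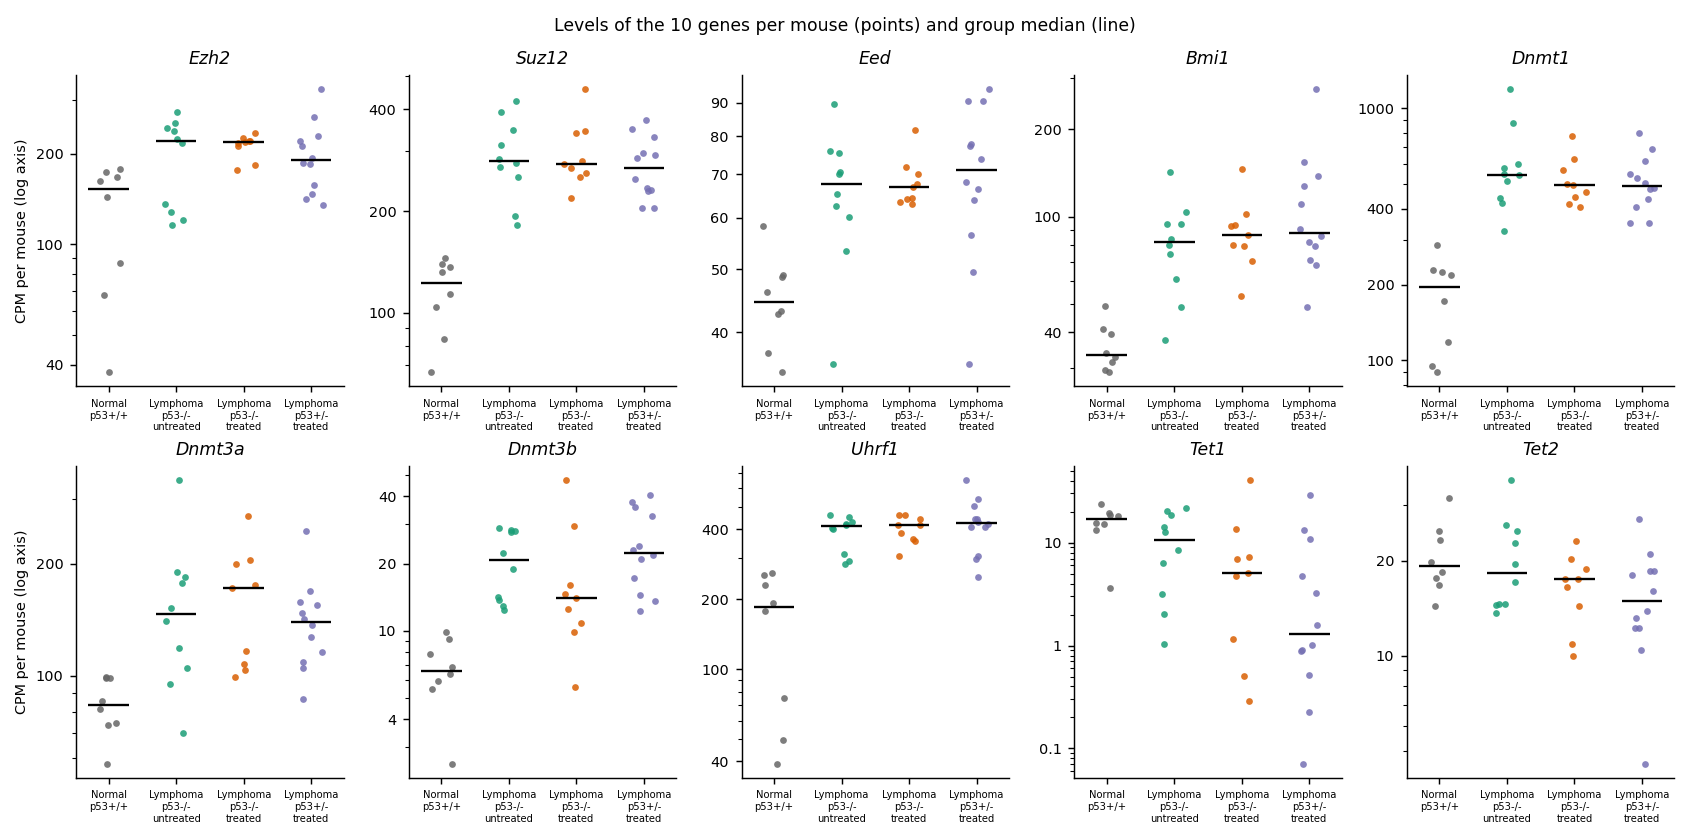
CPM per mouse on log axes for each of the 10 genes. Points are the 8 normal thymuses and the 10, 9 and 12 mice of the lymphoma groups, and lines are group medians. All lymphoma mice lie above all normal mice for Suz12 and Dnmt1, while Tet1 spreads from 0.0713 to 40.6 CPM among lymphomas.

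Of the core of Polycomb repressive complex 2, Suz12 separated lymphoma from normal thymus without overlap. Suz12 (ENSMUSG00000017548, chromosome 11, 79993106 to 80034123, plus strand) had a lowest, median and highest level of 66.8, 123 and 145 CPM in normal thymus. The same values were 182, 281 and 423 CPM in untreated p53-/- lymphomas, 218, 275 and 460 CPM in treated p53-/- lymphomas and 205, 268 and 372 CPM in treated p53+/- lymphomas. The lowest lymphoma was therefore above the highest normal thymus in each group. The log2 fold changes were 1.27 ± 0.18 (SE), 1.34 ± 0.17 and 1.22 ± 0.17, with adjusted p of 5.8e-07, 1e-07 and 3.7e-07.

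Ezh2 (ENSMUSG00000029687, chromosome 6, 47530139 to 47595341, minus strand) rose less, and its groups overlapped. Normal thymuses had 37.7, 153 and 178 CPM as lowest, median and highest. In the lymphoma groups they were 116, 221 and 275 CPM (untreated p53-/-), 177, 218 and 235 CPM (treated p53-/-) and 135, 190 and 328 CPM (treated p53+/-). Thus 6 of 10, 8 of 9 and 8 of 12 lymphoma mice exceeded every normal mouse. Its log2 fold change was 0.53 ± 0.22 (SE) in untreated p53-/- lymphomas, which did not pass the test (adjusted p = 0.059). In treated p53-/- lymphomas it was 0.70 ± 0.22 (adjusted p = 0.0089) and in treated p53+/- lymphomas 0.63 ± 0.22 (adjusted p = 0.015). The untreated value passed in 6 of 21 alternatives, among them limma voom over biopsies (0.63, adjusted p = 0.00758), the fit without a sex covariate (0.57, adjusted p = 0.0314), and those without lymphoma mouse 643 (0.64, adjusted p = 0.0228) or normal mouse 387 (0.51, adjusted p = 0.0482). The treated p53+/- value was not called with no scaling factors (0.49, adjusted p = 0.0853), on single-biopsy tumours (0.54, adjusted p = 0.11) or on mice labelled male (0.57, adjusted p = 0.298). On mice labelled male the treated p53-/- value was not called either (0.58, adjusted p = 0.188).

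Eed (ENSMUSG00000030619, chromosome 7, 89954654 to 89980983, minus strand), which binds the methylated histone tail, was called in all 3 groups with the smallest rises of the called members. Its lowest, median and highest levels were 34.7, 44.6 and 58.2 CPM in normal thymus. They were 35.8, 67.7 and 89.8 CPM in untreated p53-/- lymphomas, 62.98, 66.9 and 81.9 CPM in treated p53-/- lymphomas and 35.7, 70.95 and 94.7 CPM in treated p53+/- lymphomas. The treated p53-/- group lay wholly above normal thymus, while 2 of 10 untreated p53-/- and 3 of 12 treated p53+/- mice fell within the normal range, with mice 157 and 266 near its lower end. Its log2 fold changes came to 0.47 ± 0.15 (SE), 0.55 ± 0.15 and 0.60 ± 0.15, with adjusted p of 0.013, 0.0026 and 0.00081. The untreated call was lost with no scaling factors (0.34, adjusted p = 0.132) and on single-biopsy tumours (0.43, adjusted p = 0.0827). On mice labelled male Eed was called in none of the groups (0.47, 0.51 and 0.55, adjusted p = 0.0689, 0.0811 and 0.117).

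Bmi1 (ENSMUSG00000026739, chromosome 2, 18677018 to 18686629, plus strand), known for silencing the Cdkn2a locus, was higher and also more variable in lymphoma. Normal thymuses held a narrow range, with 29.1, 33.4 and 49.4 CPM as lowest, median and highest. The corresponding values were 37.5, 81.9 and 142 CPM in untreated p53-/- lymphomas, 53.5, 86.2 and 146 CPM in treated p53-/- lymphomas and 48.8, 88.0 and 276 CPM in treated p53+/- lymphomas. All treated p53-/- mice, 8 of 10 untreated p53-/- mice and 11 of 12 treated p53+/- mice were above every normal thymus. In edgeR's fit the changes were, on the log2 scale, 1.12 ± 0.27 (SE), 1.27 ± 0.27 and 1.58 ± 0.26, with adjusted p of 0.0011, 0.00015 and 4.3e-06. The highest value, 276 CPM, came from mouse 25 (treated p53+/-), and the next in that group was mouse 266 at 154 CPM.

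**Figure D2:**
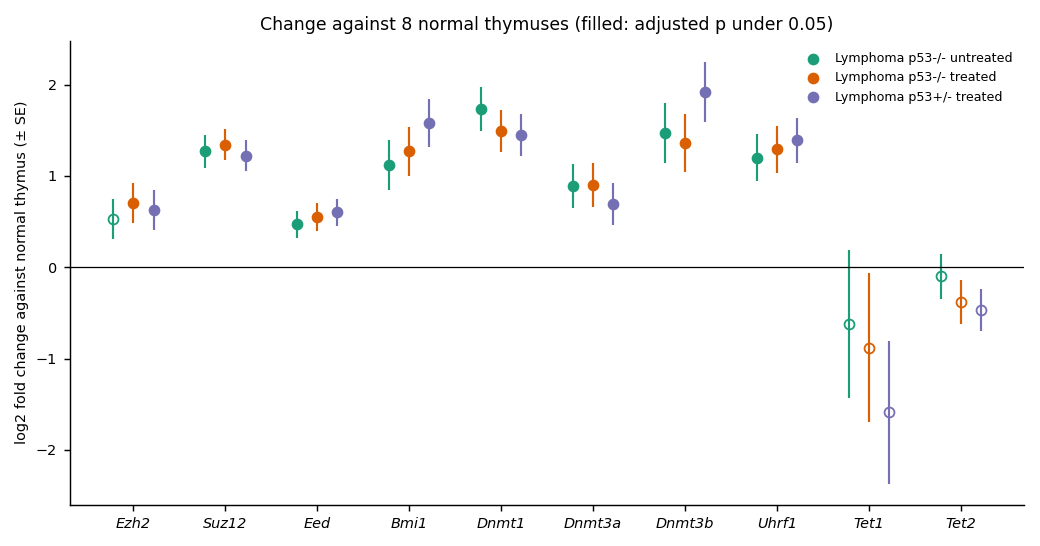
Log2 fold change against 8 normal thymuses for each gene, with bars of 1 SE, in untreated p53-/- (10 mice), treated p53-/- (9 mice) and treated p53+/- (12 mice) lymphomas. Filled points passed an adjusted p of 0.05. Dnmt1 reached 1.73 in untreated p53-/- lymphomas and Dnmt3b 1.92 in treated p53+/- lymphomas, and the open points are Tet1, Tet2 and Ezh2 in untreated lymphomas.

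Among the DNA methylation genes Dnmt1, the maintenance enzyme, rose furthest of the members in both p53-/- groups and did not overlap with normal thymus. Dnmt1 (ENSMUSG00000004099, chromosome 9, 20907209 to 20959888, minus strand) had 89.7, 195 and 287 CPM as lowest, median and highest in normal thymus. In the lymphoma groups they were 328, 546 and 1196 CPM (untreated p53-/-), 405, 498 and 779 CPM (treated p53-/-) and 351, 494 and 796 CPM (treated p53+/-). On the log2 scale the differences were 1.73 ± 0.24 (SE), 1.49 ± 0.23 and 1.45 ± 0.23, with adjusted p of 3.8e-07, 1.9e-06 and 1.9e-06. The highest level belonged to mouse 881, the lymphoma with B-lineage markers, and without it the untreated value was 1.58 (adjusted p = 5.31e-07).

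Uhrf1 (ENSMUSG00000001228, chromosome 17, 56303321 to 56323486, plus strand), the partner of Dnmt1 at replication forks, was higher in lymphoma, over a 1.62-fold and a 1.5-fold range in the p53-/- groups and a 2.61-fold range in treated p53+/- mice. Normal thymuses had 39.2, 185 and 259 CPM as lowest, median and highest. The corresponding values were 284, 411 and 461 CPM in untreated p53-/- lymphomas, 306, 417 and 460 CPM in treated p53-/- lymphomas and 250, 427 and 652 CPM in treated p53+/- lymphomas. In the last group mouse 266 alone, the lymphoma with raised fibroblast and myeloid markers, fell within the normal range. The fitted log2 changes were 1.2 ± 0.26 (SE), 1.29 ± 0.26 and 1.39 ± 0.25, with adjusted p of 0.00032, 8.3e-05 and 2.4e-05. On mice labelled male the treated p53+/- value was 1.22 and not called (adjusted p = 0.0531).

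The de novo enzymes rose as well, from different levels. Dnmt3a (ENSMUSG00000020661, chromosome 12, 3806007 to 3914443, plus strand) had 58.03, 83.4 and 99.2 CPM as lowest, median and highest in normal thymus. In the lymphoma groups they were 70.3, 146 and 337 CPM (untreated p53-/-), 99.3, 173 and 269 CPM (treated p53-/-) and 86.9, 140 and 245 CPM (treated p53+/-). The treated p53-/- group cleared the normal range by a small margin, and the other groups overlapped it in 2 of 10 and 1 of 12 mice. The log2 fold changes were 0.89 ± 0.24 (SE), 0.90 ± 0.24 and 0.69 ± 0.23, with adjusted p of 0.0036, 0.0019 and 0.012. With no scaling factors the last was 0.56 (adjusted p = 0.0618). On mice labelled male the treated p53-/- and treated p53+/- values were 0.88 and 0.68 and not called (adjusted p = 0.103 and 0.303).

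Dnmt3b (ENSMUSG00000027478, chromosome 2, 153649450 to 153687730, plus strand), the de novo enzyme best known from early embryos, was low throughout and rose in all 3 lymphoma groups. Normal thymuses had 2.54, 6.63 and 9.89 CPM as lowest, median and highest, on 35 or more counts a mouse. The corresponding values were 12.4, 20.7 and 28.9 CPM in untreated p53-/- lymphomas, 5.62, 14.1 and 47.4 CPM in treated p53-/- lymphomas and 12.3, 22.4 and 40.5 CPM in treated p53+/- lymphomas. All lymphomas exceeded all normal thymuses except mouse 490 of the treated p53-/- group. Its log2 fold changes came to 1.47 ± 0.33 (SE), 1.36 ± 0.32 and 1.92 ± 0.33, with adjusted p of 0.00057, 0.00067 and 1.1e-05. On mice labelled male the treated p53+/- value was 1.25 and not called (adjusted p = 0.07).

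Neither Tet gene was called by edgeR in the fit over all mice, and Tet1 was the most variable member. Tet1 (ENSMUSG00000047146, chromosome 10, 62804570 to 62908996, minus strand) had 3.60, 16.9 and 23.6 CPM as lowest, median and highest in normal thymus. In the lymphoma groups they were 1.04, 10.6 and 21.5 CPM (untreated p53-/-), 0.292, 5.04 and 40.6 CPM (treated p53-/-) and 0.0713, 1.303 and 28.97 CPM (treated p53+/-). The lowest value is a single count in mouse 309. In the 3 groups 3, 3 and 8 mice were lower than any normal mouse, and mouse 663 (treated p53-/-) and mouse 862 (treated p53+/-) were higher than any. The counts of lower mice rest on normal mouse 387, at 3.60 CPM. The next lowest normal thymus was mouse 624 at 13.4 CPM, and more lymphomas of each group lay below that level. The log2 fold changes of -0.62 ± 0.81 (SE), -0.88 ± 0.82 and -1.59 ± 0.78 did not pass edgeR's test (adjusted p = 0.57, 0.38 and 0.086). In treated p53+/- lymphomas DESeq2 did call Tet1 lower (-1.64, adjusted p = 0.0443), as did limma voom over biopsies (-2.69, adjusted p = 8.61e-05), a fit in which biopsies share mice and the mouse enters as a block with 1 common within-mouse correlation of 0.678, and edgeR on single-biopsy tumours alone (-4.21, adjusted p = 0.000561). In treated p53-/- lymphomas limma voom over biopsies also called Tet1 lower (-2.11, adjusted p = 0.00239).

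Tet2 (ENSMUSG00000040943, chromosome 3, 133463679 to 133545139, minus strand) had 14.4, 19.2 and 31.6 CPM as lowest, median and highest in normal thymus. The corresponding values were 13.7, 18.3 and 35.95 CPM in untreated p53-/- lymphomas, 9.97, 17.4 and 23.01 CPM in treated p53-/- lymphomas and 4.56, 14.9 and 27.1 CPM in treated p53+/- lymphomas. The groups overlapped, with 6 of the 12 treated p53+/- mice below every normal thymus. In edgeR's fit the changes were, on the log2 scale, -0.10 ± 0.25 (SE), -0.38 ± 0.24 and -0.47 ± 0.23 (adjusted p = 0.77, 0.19 and 0.084). By limma voom over biopsies Tet2 was called lower in treated p53+/- lymphomas (-0.63, adjusted p = 0.0163). With the mean level of the proliferation genes as a covariate its sign turned, without a call, to 0.44, 0.27 and 0.17 (adjusted p = 0.372, 0.652 and 0.785).

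Per kilobase of annotated exon, the order of the group medians in treated p53+/- lymphomas was led by Uhrf1 at 100.2 CPM per kb, followed by Dnmt1 at 66.97, Suz12 at 54.2, Ezh2 at 28.4, Bmi1 at 22.2, Eed at 18.5, Dnmt3a at 8.40, Dnmt3b at 4.38, Tet2 at 0.885 and Tet1 at 0.0843. In normal thymus Uhrf1 again led at 43.5 CPM per kb, with Dnmt1 at 26.4, Suz12 at 24.8 and Ezh2 at 22.9 close together and Tet1 and Tet2 lowest at 1.10 and 1.14. The 3 middle genes of normal thymus overlapped widely between mice. The exon length is that of all annotated transcripts together, so the level of Dnmt3a, Tet1 and Tet2, with 16642, 15457 and 16870 bases, is set low by it. Opposite-strand RNAs share exon bases with Eed (261 bases), Suz12 (178), Ezh2 (174), Dnmt3a (133) and Tet2 (43), and the counting is not stated to use strand, so their reads cannot be told apart.

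Proliferation moved with the same comparison. The summed level of 15 proliferation genes, among them Mki67, Top2a and Pcna, ranged from 546 to 3380 CPM in normal thymus and from 3250 to 6220 CPM in lymphomas. Among the normal mice 3 were far below the rest, namely 978 at 546 CPM, 387 at 701 CPM and 961 at 1040 CPM, and the other 5 ranged from 2170 to 3380 CPM. The same 3 mice had the lowest levels of Ezh2 (37.7, 67.9 and 86.8 CPM in mice 387, 978 and 961), of Uhrf1 (49.4, 39.2 and 74.9 CPM in that order) and of Dnmt1 (95.01, 89.7 and 118 CPM). Suz12 was lowest in the same mice too, at 66.8, 104.1 and 83.8 CPM in that order against 113.8 to 145 CPM in the other 5. Bmi1 was not lowest in all of them, with mouse 387 the highest normal thymus (49.4 CPM), mouse 961 the lowest (29.1 CPM) and mouse 978 at 32.9 CPM. Leaving out any 1 of these 3 mice left at least 7, 8 and 8 members called. Over all genes, calls in either direction were 7267, 8764 and 8299 of 18043 without mouse 387. They were 6855, 8746 and 8392 of 18001 without mouse 961, and 6530, 8741 and 8622 of 18004 without mouse 978.

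With the mean log2 CPM of the proliferation genes as a covariate, a term chosen after the data were seen, the count of members called higher was 4 in untreated p53-/- lymphomas (background 8.64%), 3 in treated p53-/- lymphomas (background 7.21%) and 3 in treated p53+/- lymphomas (background 7.44%). Suz12 kept log2 fold changes of 0.82, 0.79 and 0.68 (adjusted p = 0.00816, 0.0179 and 0.0397). Bmi1 kept 1.23, 1.40 and 1.71 (adjusted p = 0.0256, 0.0179 and 0.00355). Dnmt3b kept 1.51, 1.40 and 1.96 (adjusted p = 0.0196, 0.0419 and 0.00472). Dnmt1 remained called in untreated p53-/- lymphomas alone, at 1.09 (adjusted p = 0.00425), with 0.69 and 0.64 in the treated groups (adjusted p = 0.0966 and 0.117). Uhrf1 was at 0.20, 0.08 and 0.16 (adjusted p = 0.556, 0.86 and 0.69). Ezh2 turned to -0.32, -0.31 and -0.38 (adjusted p = 0.329, 0.399 and 0.281). The proliferation mean did not overlap between normal thymus and lymphoma (4.55 to 7.21 against 7.33 to 8.32), so tissue and proliferation cannot be fully told apart in this model. Dnmt3a was at 0.82, 0.81 and 0.60 (adjusted p = 0.0985, 0.117 and 0.262) and Eed at 0.22, 0.25 and 0.30 (adjusted p = 0.511, 0.491 and 0.386).

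**Figure D3:**
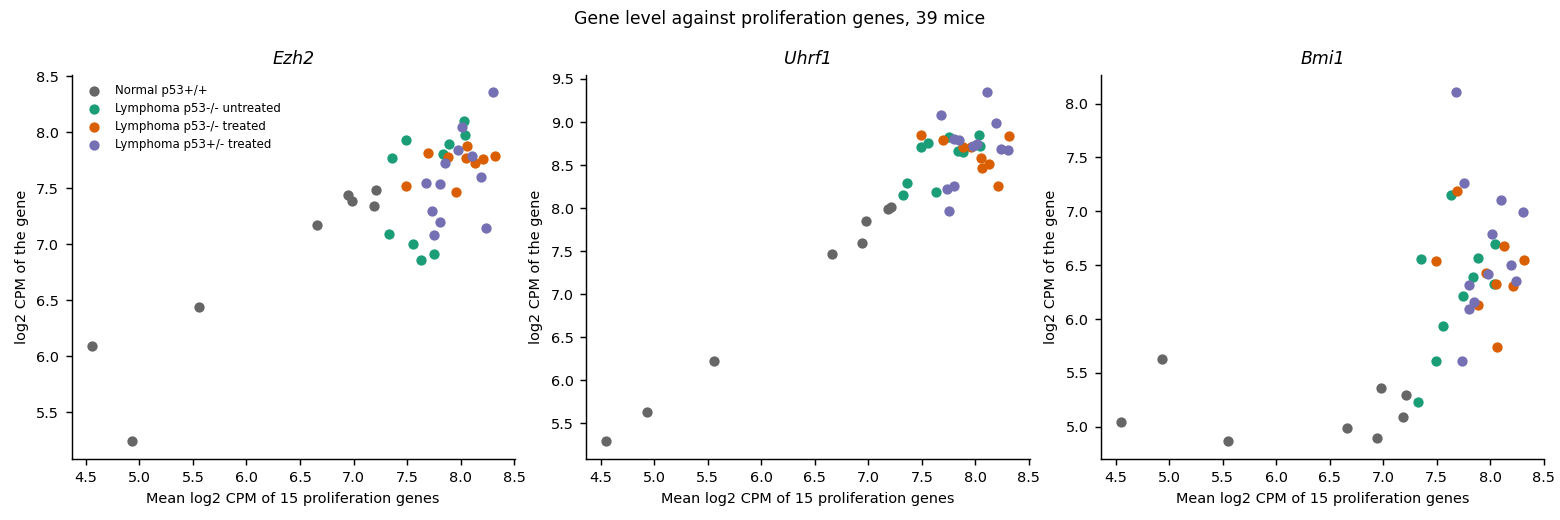
Log2 CPM of Ezh2, Uhrf1 and Bmi1 against the mean log2 CPM of 15 proliferation genes in 39 mice (8 normal thymuses and 31 lymphomas, 1 point a mouse). Normal mice span 4.55 to 7.21 on the horizontal axis and lymphomas 7.33 to 8.32, and Uhrf1 rises along it across the normal mice while Bmi1 stays between 29.1 and 49.4 CPM in them.

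Within the 31 lymphomas the relation to proliferation was tested for the 10 members, with permutation p-values adjusted over the 10. Tet2 was lower where the proliferation mean was higher (Pearson r = -0.496, permutation p = 0.0041, adjusted 0.041; Spearman rho = -0.581, permutation p = 0.00069, adjusted 0.0069). Without the 2 mice farthest from the median, r was -0.587. Within the 3 groups Tet2 had rho of -0.261 (10 mice, permutation p = 0.471), -0.617 (9 mice, exact p = 0.0857) and -0.441 (12 mice, permutation p = 0.154). With no scaling factors it no longer passed (rho = -0.309, adjusted 0.228). Ezh2 had r = 0.441 (permutation p = 0.0131, adjusted 0.0655) and rho = 0.423 (permutation p = 0.0184, adjusted 0.0921), which passed with no scaling factors (rho = 0.476, adjusted 0.0358). Dnmt3b, at rho = -0.394 (permutation p = 0.0301, adjusted 0.1), likewise passed without them (rho = -0.491, adjusted 0.0358). By Pearson's r without scaling factors Dnmt3b did not pass (r = -0.259, adjusted 0.258), while Ezh2 (r = 0.594, adjusted 0.0064), Uhrf1 (r = 0.485, adjusted 0.0336), Eed (r = 0.461, adjusted 0.0347) and Suz12 (r = 0.42, adjusted 0.0464) did. By rank no member other than Tet2, Ezh2 and Dnmt3b passed in either setting. With the lowest-numbered biopsy of each mouse Tet2 passed by rank (rho = -0.521, adjusted 0.0301) and not by Pearson's r (-0.42, adjusted 0.142). Within single groups, without adjustment, Dnmt3a had rho = -0.8 in treated p53-/- lymphomas (9 mice, exact p = 0.0138), Suz12 rho = 0.601 in treated p53+/- lymphomas (12 mice, permutation p = 0.0431) and Uhrf1 r = 0.66 in untreated p53-/- lymphomas (10 mice, permutation p = 0.0442). The rank relation of Uhrf1 there did not pass (rho = 0.552, permutation p = 0.105).

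The other Polycomb and DNA methylation genes, a list of 42 also chosen with earlier results of these data known, had called genes in both directions. In untreated p53-/- lymphomas 16 were called higher and 3 lower, in treated p53-/- lymphomas 13 higher and 10 lower, and in treated p53+/- lymphomas 15 higher and 8 lower, read against the backgrounds above. The list's median log2 fold changes were 0.17, -0.01 and 0.18. Of the 8 genes of Polycomb repressive complex 2 in the list 4 were called higher in each group and 1, 3 and 2 lower, and of the 20 genes of complex 1, 6, 4 and 6 were called higher and 2, 4 and 3 lower. Of the 8 DNA methylation genes 3, 2 and 2 were called higher and 0, 2 and 2 lower. Beside these counts, 23.2%, 25.4% and 25.6% of all genes were called higher and 17.5%, 26.7% and 25.3% lower, so that the counts of complex 1 and of DNA methylation lie near the background. Ezh1, the alternative catalytic subunit known from non-dividing cells, had 37.1 to 71.2 CPM in normal thymus and 16.99 to 34.7 CPM in treated p53+/- lymphomas. Ezh1 fell by 1.16 ± 0.23 (SE) in treated p53-/- and by 1.15 ± 0.22 in treated p53+/- lymphomas (adjusted p = 8.4e-05 and 3.6e-05). In untreated p53-/- lymphomas Ezh1 had a value of -0.53 ± 0.24 (adjusted p = 0.07).

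The 3 Polycomb-like accessory subunits, which recruit the complex to chromatin, went opposite ways. Phf1 was lower in every lymphoma than in any normal thymus, at 54.6 to 83.0 CPM in normal thymus against 8.08 to 26.9 CPM in all lymphomas. Its log2 fold changes were -1.92 ± 0.19 (SE), -2.50 ± 0.20 and -2.21 ± 0.18 (adjusted p = 1.9e-09, 7.1e-12 and 9.1e-12). Phf19 rose by 2.10, 1.67 and 1.62 (adjusted p = 9.6e-06, 8.8e-05 and 0.00012). Mtf2 rose by 1.32, 1.99 and 2.03, with all 12 treated p53+/- lymphomas above every normal thymus. Rbbp4, a histone-binding subunit, was called higher in all 3 groups, up to 1.60 ± 0.23 in treated p53+/- lymphomas (adjusted p = 6.2e-07).

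Of the ubiquitin ligases of Polycomb repressive complex 1, Ring1 fell in all 3 groups, by 0.68, 0.71 and 0.79 (adjusted p = 7.9e-05, 2e-05 and 1.5e-06), and every lymphoma was below every normal thymus, although in the last group the highest lymphoma and the lowest normal thymus both round to 24.08 CPM. Rnf2 had 0.50, 0.37 and 0.54 (adjusted p = 0.041, 0.11 and 0.017). L3mbtl2, a subunit of a variant complex, rose by 1.37 ± 0.17 in untreated p53-/- lymphomas (adjusted p = 6.9e-08). Cbx8, which reads the methylated histone, had -0.76 there (adjusted p = 0.034), and Phc3 had -0.87 in treated p53-/- lymphomas (adjusted p = 0.00023). The histone demethylase Kdm6b fell in both treated groups, by 0.68 in each (adjusted p = 0.036 and 0.027), with -0.51 in the untreated group (adjusted p = 0.14), and Kdm6a was not called in any.

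Around DNA methylation, Hells, the chromatin remodeller needed for it, rose by 1.61 ± 0.28 (SE) in untreated and by 1.76 ± 0.27 in treated p53-/- lymphomas (adjusted p = 1.8e-05 and 2.4e-06). Uhrf2, the paralog of Uhrf1, fell by 0.72 in treated p53-/- and by 1.01 in treated p53+/- lymphomas (adjusted p = 0.024 and 0.0011), and had -0.39 in untreated p53-/- lymphomas (adjusted p = 0.26). Tet3 was not called, with 0.14, -0.44 and -0.33 (adjusted p = 0.65, 0.099 and 0.19). Dnmt3l, the catalytically inactive cofactor of the de novo enzymes, was near the limit of detection, at no more than 1.72 CPM in any mouse, and was not called.

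The second question was whether doxycycline treatment or p53 genotype separated the lymphoma groups. No member was called in any of the 3 contrasts among lymphomas, where edgeR called 0% of 16389 genes. The contrasts were treatment within p53-/-, genotype within treated mice, and treated p53+/- against untreated p53-/-. In that order 1917, 864 and 1037 genes had an unadjusted p under 0.05, and no member was among them. DESeq2 called 75, 12 and 3 genes, limma voom 39, 1 and 1, and edgeR without the sex covariate 0, 0 and 21, again without a member. Between treated and untreated p53-/- lymphomas Suz12 differed by 0.00 ± 0.17 (SE), with 2 SE reaching from -0.35 to 0.35, and Uhrf1 by 0.02 ± 0.15 (from -0.29 to 0.33). Neither interval includes a doubling. Those of Dnmt3b (from -0.84 to 0.51) and Bmi1 (from -0.4 to 0.77) do not include one in this contrast either. In other contrasts the intervals of Dnmt3b and Bmi1 reach past a doubling. Dnmt3b differed by 0.52 ± 0.32 between treated p53+/- and treated p53-/- lymphomas (from -0.12 to 1.16, adjusted p = 0.97). Bmi1 differed by 0.50 ± 0.28 between treated p53+/- and untreated p53-/- lymphomas (from -0.06 to 1.05, adjusted p = 0.82). Tet1 was poorly determined, at -1.03 ± 0.90 in the same contrast (from -2.84 to 0.77, adjusted p = 0.88).

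Biopsies of the same tumour were compared in the 13 multifocal lymphomas, as a description without a test. The pooled SD of log2 CPM among biopsies was lowest for Eed (0.16) and Ezh2 (0.20) and highest for Dnmt3b (0.40) and Tet1 (0.63). The counting error alone amounted to 0.06, 0.03, 0.12 and 0.41 for these 4 genes, which for Tet1 is a large share of its spread. Differences between tumours exceeded those within them for every member, with 50.4% (Eed) to 89.4% (Tet1) of the variance lying between tumours. A more than 2-fold range within a tumour was seen in 10 tumours for Tet1, in 3 for Dnmt3b, in 2 each for Dnmt1, Uhrf1 and Tet2, in 1 each for Bmi1 and Dnmt3a, and in none for Ezh2, Suz12 and Eed.

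Suz12 gave an even picture in mouse 202 (untreated p53-/-), with 370, 402, 395 and 385 CPM, and an uneven one in mouse 869 (treated p53-/-), with 513, 298, 367 and 505 CPM. For Tet1 the 5 biopsies of mouse 862 had 29.1, 33.7, 28.7, 24.6 and 19.4 CPM and the 4 biopsies of mouse 884, also treated p53+/-, had 0.244, 0, 0.373 and 0 CPM. Mouse 884 had the widest spread for Ezh2, Bmi1, Dnmt1, Dnmt3b and Uhrf1. Its biopsy 2 had 495 CPM of Uhrf1, against 114, 202 and 116 CPM in biopsies 5, 6 and 8, and Dnmt3b was likewise high in biopsy 2, at 66.9 CPM against 22.4, 24.4 and 17.99 CPM. Biopsies 5 and 8 were also among the shallower libraries, at 3810387 and 5221471 counts, beside 13183072 counts for biopsy 2 and 11388747 counts for biopsy 6, and whether depth plays a part was not tested.

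**Figure D4:**
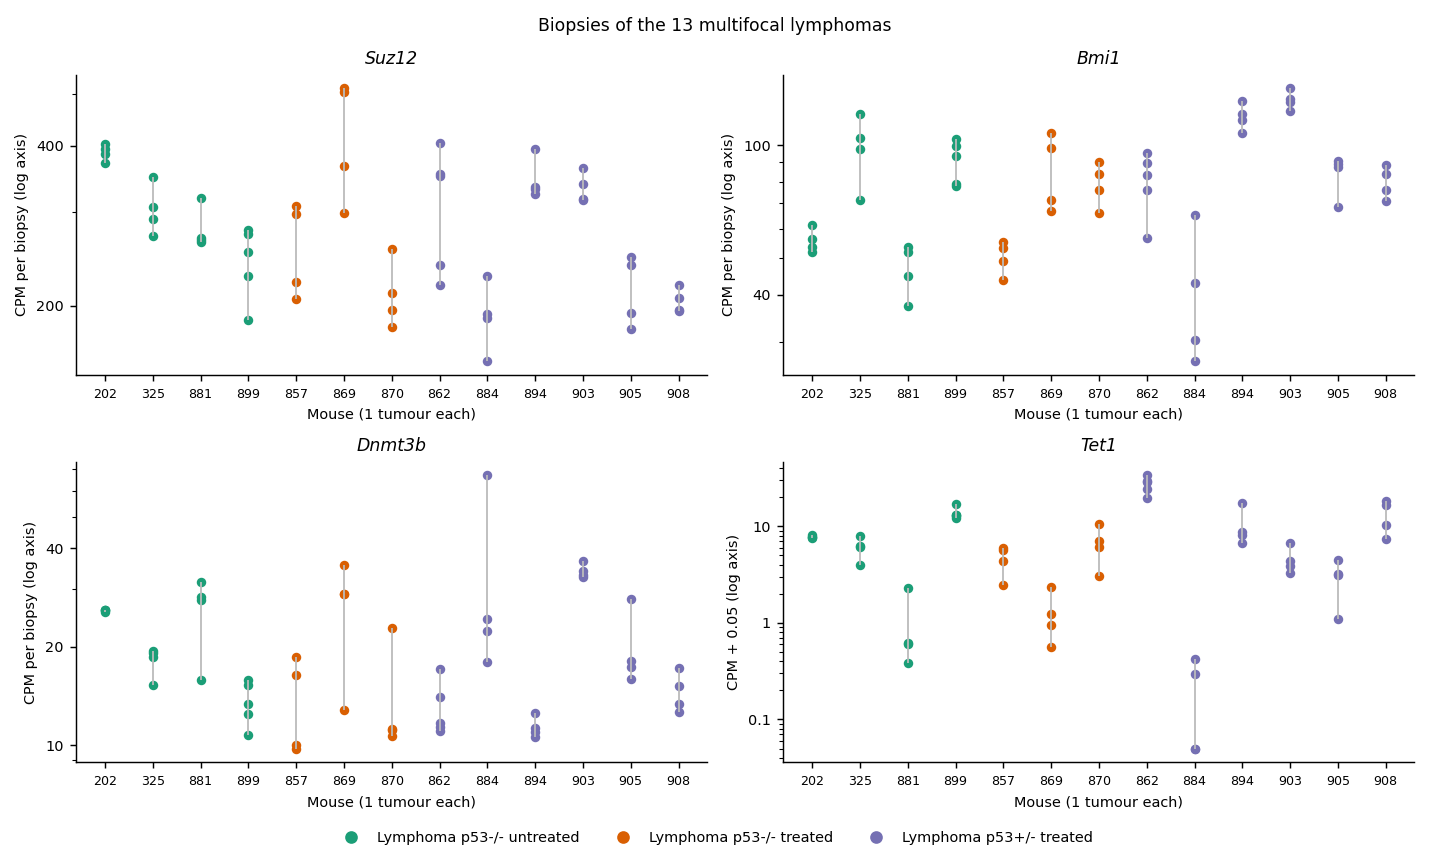
CPM per biopsy of Suz12, Bmi1, Dnmt3b and Tet1 in the 13 multifocal lymphomas on log axes, with 1 column per mouse, 1 point per biopsy and a grey line over their range. Tet1 is drawn as CPM + 0.05 because 2 biopsies of mouse 884 are at 0. Suz12 stays between 157 and 513 CPM, and Dnmt3b of mouse 884 reaches 66.9 CPM in 1 biopsy.

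Because these tumours were studied for aneuploidy, each member was also set against its own chromosome. The measure was the median log2 ratio to normal thymus of the other genes of that chromosome, centred in each mouse, computed from RNA alone, with no DNA copies counted. Over 31 lymphomas Dnmt3a rose with chromosome 12 (Pearson r = 0.588, permutation p = 0.00048, adjusted 0.0048; Spearman rho = 0.574, permutation p = 0.00077, adjusted 0.0077). Without the 2 farthest mice r was 0.526. Within the groups Dnmt3a had r of 0.413 in untreated p53-/- (10 mice, permutation p = 0.234), 0.647 in treated p53-/- (9 mice, exact p = 0.0661) and 0.915 in treated p53+/- lymphomas (12 mice, permutation p = 0.0001). The chromosome 12 median itself ranged from -0.39 to 0.53 among lymphomas and from -0.05 to 0.11 among normal thymuses.

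Suz12 followed chromosome 11 by rank (rho = 0.424, permutation p = 0.0182, adjusted 0.0455) and missed the threshold by Pearson's r (0.453, permutation p = 0.0108, adjusted 0.0541). Uhrf1 with chromosome 17 (rho = 0.459, permutation p = 0.0101, adjusted 0.0337) and Tet1 with chromosome 10 (rho = 0.465, permutation p = 0.00928, adjusted 0.0337) did the same, with r of 0.392 and 0.386 (adjusted 0.0816 for both). Without the 2 farthest mice r was 0.444 for Suz12, 0.371 for Uhrf1 and 0.497 for Tet1. Within groups the rank relation of Suz12 was 0.588, -0.017 and 0.378 and that of Tet1 -0.127, 0.617 and 0.594. With no scaling factors none of the 4 genes passed by rank (adjusted p of 0.0549 to 0.0557), with rho of 0.457 for Suz12, 0.46 for Tet1, 0.413 for Uhrf1 and 0.416 for Dnmt3a. Bmi1 and Dnmt3b, both on chromosome 2, had r of -0.343 and 0.285 and did not pass, nor did the other 4 members. With the lowest-numbered biopsy of each mouse 5 members passed by Pearson's r, namely Suz12 (r = 0.529, adjusted 0.0125), Dnmt3a (0.524, adjusted 0.0125), Uhrf1 (0.447, adjusted 0.0392), Tet1 (0.418, adjusted 0.0483) and Dnmt3b (0.404, adjusted 0.0483). By rank the first 4 of these passed there (adjusted 0.0188, 0.0188, 0.0279 and 0.0188) and Dnmt3b did not (adjusted 0.0821). Tet2, which did not pass over all lymphomas (r = 0.15, adjusted 0.469), had r = 0.846 within treated p53-/- lymphomas (9 mice, exact p = 0.00354) and r = -0.166 within treated p53+/- lymphomas (12 mice, permutation p = 0.611). The p-values within groups are not adjusted, and for each relation 30 were computed by Pearson's r and as many by Spearman's rho.

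**Figure D5:**
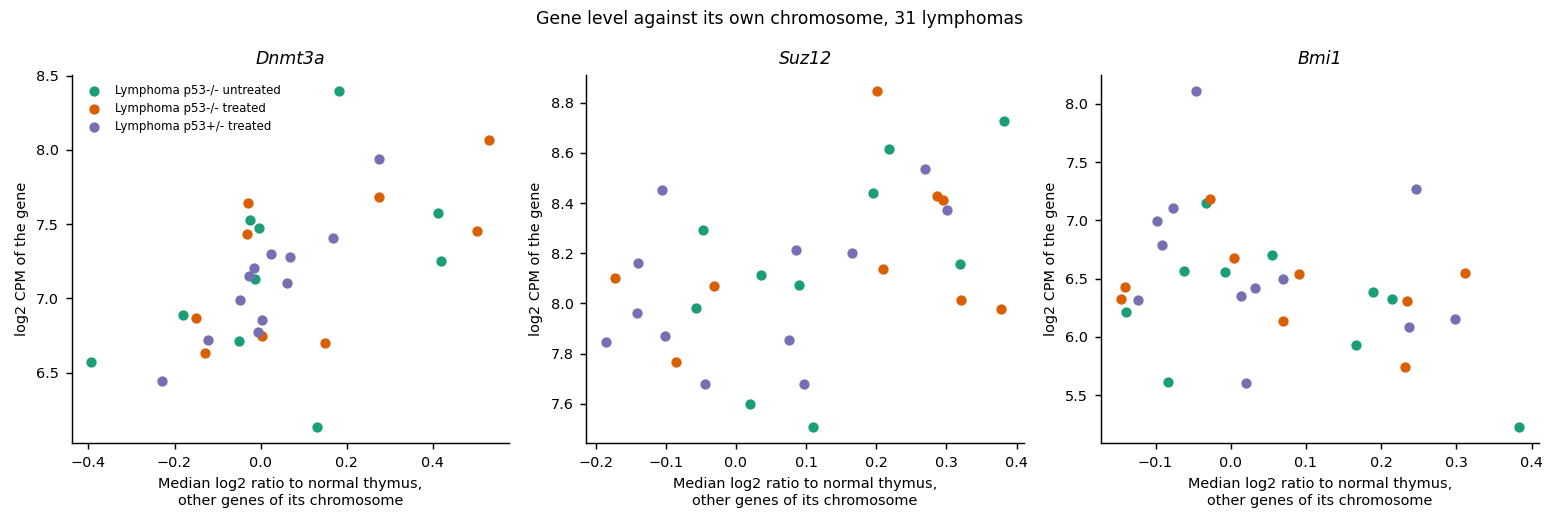
Log2 CPM of Dnmt3a, Suz12 and Bmi1 against the median log2 ratio to normal thymus of the other genes on chromosome 12, 11 and 2, in 31 lymphomas coloured by group. Dnmt3a and Suz12 rise to the right (Pearson r of 0.588 and 0.453) and Bmi1 does not (-0.343).

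The genes whose level was most like that of a member over the 31 lymphomas, by Spearman's rho among 16372 genes, lay on the member's own chromosome for some members and not for others. For Suz12 they were Pafah1b1 (0.760), Xpo1 (0.755) and Taf15 (0.744), all on chromosome 11. For Dnmt3a they were Dnal1 (0.796), Asxl2 (0.777) and Bcl11b (0.774), all on chromosome 12. Uhrf1 had Zfp160 (0.682) and Vars (0.675) on its chromosome 17 and Xndc1 (0.662) on chromosome 7, and Dnmt3b had Fpgs (0.710) and Accs (0.683) on its chromosome 2 and Gatsl3 (0.705) on chromosome 11.

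For Ezh2, Bmi1, Dnmt1, Tet1 and Tet2 none of the 3 nearest genes shared the chromosome. They were 4931414P19Rik (0.701), Gm15236 (0.698) and Ipo11 (0.690) for Ezh2, Thap12 (0.667), Tnpo1 (0.658) and Phf20l1 (0.656) for Bmi1, and Slc1a5 (0.749), Gas2l3 (0.746) and Sptbn1 (0.702) for Dnmt1. Tet1 had Klhl3 (0.709), Fam208b (0.704) and Smg5 (0.702), Tet2 had Hip1 (0.732), Slc12a9 (0.689) and Flywch1 (0.679), and Eed had Pgp (0.716), Impa1 (0.690) and, on its own chromosome 7, Grwd1 (0.680). Among the 50 nearest genes, a wider look added after these 3 were seen, 37 of 50 (74%) for Uhrf1, 34 (68%) for Suz12 and 17 (34%) for Dnmt3a lay on the member's chromosome, which holds 4.94%, 8.06% and 3.88% of the genes compared. Eed had 13 (26%, where chromosome 7 holds 7.51%), Dnmt3b 8 (16% against 7.73%), Dnmt1 7 (14% against 5.84%), Tet1 7 (14% against 4.75%) and Ezh2 4 (8% against 5.32%). For Bmi1 the number was 0 and for Tet2 1, where the chromosomes hold 7.73% and 4.95%. Between members, rho was 0.541 for Suz12 and Dnmt1, 0.464 for Eed and Uhrf1 and 0.437 for Suz12 and Uhrf1. These are descriptions over mice that share scaling and sequencing, and carry no test.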

How the data were processed

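Values for all 81 libraries came as a single table that the authors deposited, in expected counts, RSEM's estimate of reads per gene, without scaling. The submitters' processing notes name CASAVA 1.8, fastp, STAR 2.7.2b, RSEM 1.1.17 and mm10, with no roles. Annotation and strandedness are not given in the sources used here. Gene coordinates came from GENCODE M21 (GRCm38), which matched 51633 of 51826 IDs (99.63%), and promoters from RefSeq GRCm38.p6, with entries for all 10 members.

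Expected counts were rounded and biopsies summed per mouse. edgeR 4.0.16 (R 4.3.3; TMM, filterByExpr, robust quasi-likelihood, labelled sex as covariate) was fitted on normal thymuses and lymphomas (17843 genes) and on lymphomas alone (16389 genes). DESeq2 1.42.0 and limma 3.58.1 were alternatives. The limma voom fit used single biopsies, with the mouse as a block (within-mouse correlation 0.678 with normal thymuses included, 0.712 among lymphomas). Log2 CPM used a prior count of 2. Chromosome medians used 14913 autosomal genes (mean CPM 1 or more). Correlations used 100000 permutations, or all orders under 10 mice.

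On counts simulated for untreated p53-/- lymphoma against normal thymus (17157 genes), edgeR recovered 41 of 100 genes changed 2-fold and 64 of 100 changed 4-fold, with 5 false calls. DESeq2 recovered 50 and 74 with 17.

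The labels give no batch. Beyond sex and whether the tumour had a single or a multifocal biopsy, nothing in them says more of the mice of a group than that they are separate animals. The members and lists were chosen with earlier results of these data known. Named beyond the members were up to 3 of the largest called rises and falls of the wider list per contrast, 8 related genes (Ezh1, Rnf2, Ring1, Dnmt3l, Tet3, Uhrf2, Kdm6a and Kdm6b) and the 3 genes most correlated with each member. Mtf2, Rbbp4 and others are given in contrasts beyond the one that named them.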

Additional observations from a re-analysis of the deposited data

Results flagged for a closer look

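The 10 genes were searched for outlying mice in the groups of 8, 9 and 10 mice, 30 searches of which chance would pick out about 1 in 20, and 3 values stood far from the rest of their group. The group of 12 treated p53+/- lymphomas was not searched. Eed was at 81.9 CPM in mouse 653, the highest of the 9 treated p53-/- lymphomas, whose other 8 ranged from 62.98 to 71.8 CPM. Normal mouse 387 had the lowest Dnmt3b, 2.54 CPM, and the lowest Tet1, 3.60 CPM, of the 8 normal thymuses, and it is also the normal thymus with raised B-lineage and fat markers. The p53+/- normal thymus of mouse 819, a single animal outside the tests, had Dnmt3a at 108.3 CPM (108.0 rounded to a whole number). That level was above the highest p53+/+ normal thymus at 99.2 CPM.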

How the results depend on the processing

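Each contrast with normal thymus had 21 alternatives, 5 of them chosen after seeing the data. Whether a member was called stayed the same in 592 of 630 cases. The call was lost in 25 cases, gained in 11 and lost with a change of sign in 2. A change of sign without a call in either fit counted as the same. With the proliferation term this held for Tet2 in all 3 groups and for Ezh2 in untreated p53-/- lymphomas. Calls of Suz12 and Bmi1 against normal thymus were kept in every alternative run. The proliferation term gave 4, 3 and 3 members and 8, 7 and 9 genes of the wider list called in the 3 groups, where 2673, 2503 and 2423 of all 17843 genes were called in either direction against 7270, 9293 and 9079 without it. It also reversed Ezh2 to -0.31 (treated p53-/-) and -0.38 (treated p53+/-), without a call. Mice labelled male alone gave 5 and 3 members and 12 and 11 wider genes in the treated p53-/- and treated p53+/- groups, with 4 normal, 4 and 3 lymphoma mice, and there the calls over all genes were 4773 and 2144 of 18043. Among lymphomas all 510 cases stayed uncalled. With no scaling factors the own-chromosome relation passed by rank for 0 members, against 4, and the proliferation relation for 2, against 1. Within single groups the rank relation to the own chromosome reversed for Suz12 (-0.017, treated p53-/-) and Tet1 (-0.127, untreated p53-/-). Ranking by Pearson's r kept 11 of the 30 most similar genes. Without scaling factors the median log2 fold change of all genes moved from 0.08 to -0.05 in untreated p53-/- lymphomas and the share of calls that were higher from 56.9% to 46.6%, and no called member changed sign. limma voom gave a share of 44%. No pooled SD among biopsies moved by more than the SD of the single-tumour SDs, a wide yardstick that is not an error of the pooled value. No paired analysis was possible because replicate numbers name single mice and are not shared between groups. Depth limits Tet1, with 1 to 8 counts in its lowest mice.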
